A study of Homo sapiens with 16 samples.

Results

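The MYC, MAX and MXD network is described here by 10 transcripts, out of 28277 gene symbols measured in 2 human multiple myeloma cell lines. They are MYC, its partner MAX, the antagonists MXD1, MXD3, MXD4, MXI1 and MNT, the related factors MLX and MGA, and MIR17HG, the host transcript of the miR-17-92 microRNA cluster. Rows were taken by gene symbol from each line's expression table. The set was drawn up with the knockdown results in view (MYC was lower while its induced genes were higher), so the members' knockdown values are given as a description, without a test. The groups were INA6 cells with a KANSL2 knockdown, INA6 cells with a non-targeting guide, JJN3 cells with a KANSL2 knockdown and JJN3 cells with a non-targeting guide, with 3 RNA libraries in each. The lines carried a CRISPR interference system (CRISPR-dCas9-CRAB in the study's description), in which inactive Cas9 joined to a repressor domain silences the gene its guide RNA points to, and all were labelled untreated otherwise. INA6 and JJN3 are established plasma cell lines, INA6 known to need interleukin 6. KANSL2 belongs to the NSL complex, which carries the histone acetyltransferase KAT8. The labels do not say whether replicates came from separate cultures, nor whether each engineered line was a pool or a clone, so the p-values cover library-to-library spread, which may be technical. Another 4 JJN3 libraries for chromatin accessibility were not analysed here.

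MYC binds DNA as a dimer with MAX at E-box sequences and drives genes of ribosome production, metabolism and cell division. MXD proteins and MNT bind MAX too, and bring the SIN3 histone deacetylase corepressor to the same sites, so cells hold activating and repressing MAX dimers in competition. MYC is a dominant growth driver in myeloma, where IRF4 and MYC are known to sustain each other. MLX pairs with MLXIP and MLXIPL in nutrient sensing, and MGA joins MAX in the Polycomb complex PRC1.6.

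MIR17HG is known as a direct MYC-induced gene. Its microRNAs are shown because their seeds, the bases from 2 to 8 that pair with target messages, set which genes they repress. The RefSeq entries of GRCh38.p14 held 6 hairpins inside the MIR17HG gene (chr13:91347687-91354577, plus strand), between 2919 and 3705 bases from its start. In the sequences below, 5′ to 3′, capitals mark the seed.
miR-17-5p: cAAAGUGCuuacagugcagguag
miR-20a-5p: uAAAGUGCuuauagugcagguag
miR-18a-5p: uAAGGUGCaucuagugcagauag
miR-19a-3p: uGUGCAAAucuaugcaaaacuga
miR-19b-3p: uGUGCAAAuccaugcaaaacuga
miR-92a-3p: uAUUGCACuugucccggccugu

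The 6 microRNAs carry 4 different seeds. miR-17-5p and miR-20a-5p share one and the pair of miR-19 microRNAs share another. The gene MCM7 on chromosome 7 (minus strand), a replicative helicase subunit, hosts a related cluster with the miR-17 and miR-92 seeds.
miR-106b-5p: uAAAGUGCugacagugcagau
miR-93-5p: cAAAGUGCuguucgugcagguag
miR-25-3p: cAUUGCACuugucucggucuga

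**Figure D1:**
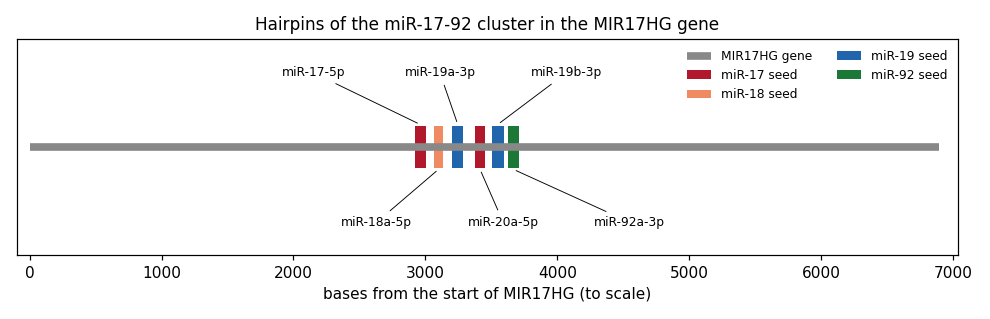
Map to scale of the MIR17HG gene (grey line), with the x axis giving bases from its start and coloured blocks marking the 6 microRNA hairpins by seed. All 6 hairpins lie between 2919 and 3705 bases from the start.

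Promoter windows of 9 members were in the RefSeq table, running from 250 bases before to 50 bases after each start. The E-box CACGTG (the same on both strands) was in the windows of MXD4, MNT and MLX, where capitals mark it below. They are shown because they held this E-box, and the members' knockdown values played no part in that choice.
MXD4: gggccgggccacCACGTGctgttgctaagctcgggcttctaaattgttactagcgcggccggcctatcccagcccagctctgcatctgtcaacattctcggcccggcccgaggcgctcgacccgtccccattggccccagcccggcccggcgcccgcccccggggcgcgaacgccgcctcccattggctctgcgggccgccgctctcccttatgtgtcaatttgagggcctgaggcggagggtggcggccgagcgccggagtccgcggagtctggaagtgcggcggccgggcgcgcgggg
MNT: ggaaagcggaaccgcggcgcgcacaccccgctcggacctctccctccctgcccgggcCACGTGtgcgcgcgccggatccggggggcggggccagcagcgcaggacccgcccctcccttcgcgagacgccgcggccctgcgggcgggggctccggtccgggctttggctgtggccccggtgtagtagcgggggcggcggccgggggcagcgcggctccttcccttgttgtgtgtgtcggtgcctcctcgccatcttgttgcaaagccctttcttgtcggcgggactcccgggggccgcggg
MLX: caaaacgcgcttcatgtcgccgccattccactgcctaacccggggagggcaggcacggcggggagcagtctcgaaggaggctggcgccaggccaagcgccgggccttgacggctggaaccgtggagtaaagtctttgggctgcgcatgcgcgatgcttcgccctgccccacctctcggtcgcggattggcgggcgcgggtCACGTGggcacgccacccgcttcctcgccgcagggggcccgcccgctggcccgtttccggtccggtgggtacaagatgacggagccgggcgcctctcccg

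In GRCh38.p14 the members lie at chr14:65006101-65102695 (MAX), chr2:69915109-69942945 (MXD1), chr5:177305499-177312752 (MXD3), chr4:2247432-2262109 (MXD4), chr10:110207605-110287365 (MXI1), chr17:2384073-2401060 (MNT), chr17:42567100-42573203 (MLX) and chr15:41621224-41769940 (MGA), with MYC on chromosome 8. These windows lie at chr4:2262060-2262359 (minus strand), chr17:2401011-2401310 (minus strand) and chr17:42566850-42567149 (plus strand) of GRCh38.p14. The E-box begins 238 bases before the start of MXD4, 193 before that of MNT and 50 before that of MLX. The non-canonical E-box CACGCG, searched on both strands, was in 1 window each of MXD3, MXI1 and MGA. CACGTG was in 7.26% of all 35116 windows of this length and CACGCG in 11.4%. Per gene, 13.1% of the 8742 genes tested in both lines that had a window held CACGTG and 23.3% CACGCG. These matches are letters in a window and do not show binding.

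KANSL2 itself stood at 76.4% of the non-targeting level in INA6 knockdown cells (limma adjusted p = 3.06e-05) and at 43.1% in JJN3 knockdown cells (limma adjusted p = 1.48e-16), on the rlog scale. The values were regularised log (rlog) values, log2 scaled counts in which genes with few reads are pulled towards their mean, and each line's table was normalised alone. Levels are therefore compared within a line only, and since the values are not per length, not between genes. Depth per library is unknown, and all changes are relative to the rest of a library's RNA. Genes with a mean of at least 3 were tested, 12511 in INA6 and 12282 in JJN3, and all 10 members reached that in both lines. limma with Benjamini-Hochberg adjustment called 48.6% of the genes tested in INA6 (24.7% higher, 24.0% lower) and 51.0% in JJN3 (25.5% higher, 25.5% lower) at an adjusted p below 0.05. With each library centred on its median the INA6 calls were 3904 higher and 2400 lower, against 3084 higher and 3000 lower as deposited. Plasma cell markers were present in both lines, 10 of 11 being over the minimum. T and NK cell, myeloid and stromal markers were mostly under it (4 of 7, 7 of 8 and 7 of 8 in INA6), and MS4A1, CD3D or S100A9 among others were listed at 0 in 1 line or both. Of 9 B cell markers, 6 were over the minimum in each line, and VIM was the stromal marker over it. RING1, a subunit of PRC1.6, was also at 0 in every library, so a row at 0 does not show that a cell type is absent. The mean rlog level over the plasma cell list was 10.62 to 10.74 in INA6 knockdown libraries, against 10.97 to 11.0 in non-targeting ones, and 9.794 to 9.836 in JJN3 knockdown libraries, against 9.704 to 9.765 in non-targeting ones. Its part in the network's values was not tested. In bulk libraries fewer cells of a type and less RNA per cell cannot be told apart.

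MYC was lower in the knockdown cells of both lines, and MAX higher. MYC stood at 13.76, 13.72 and 13.78 in INA6 knockdown libraries, against 14.28, 14.29 and 14.26 in INA6 non-targeting libraries. The groups did not overlap, and the difference of −0.52 (SE 0.0376) puts MYC at 69.6% of its non-targeting level. In JJN3 it stood at 14.40, 14.39 and 14.38 in knockdown libraries, against 14.75, 14.83 and 14.80 in non-targeting libraries. Again every knockdown library was below every non-targeting one, by −0.40 on average (SE 0.0374), or 75.5% of the non-targeting level. MAX, the obligate partner of MYC and of its antagonists, had 9.78, 9.77 and 9.86 in INA6 knockdown libraries, against 9.55, 9.63 and 9.51 in non-targeting ones. In JJN3, MAX had 10.06, 10.01 and 10.06 in knockdown libraries, against 9.89, 9.81 and 9.85 in non-targeting ones. MAX was thus 0.24 higher in INA6 (SE 0.0498) and 0.19 higher in JJN3 (SE 0.0428), without overlap. With quantile normalisation the JJN3 difference of MAX was 0.13. MAX shares 56550 bases with FNTB, whose row was under the minimum mean in both lines, and the strand of counting is unknown.

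**Figure D2:**
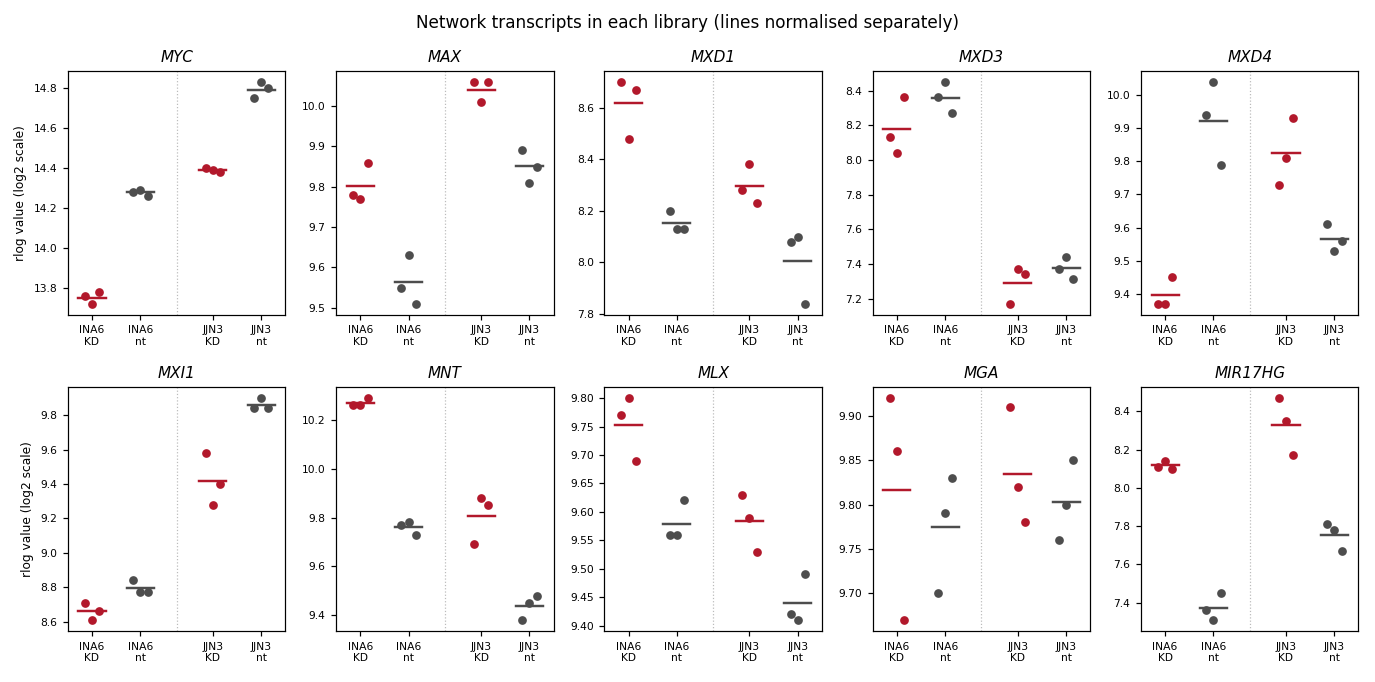
Each panel plots 1 network transcript, the y axis its rlog value (log2 scale), each dot a library and each bar the mean of 3, with knockdown (KD) left of non-targeting (nt) in INA6 and then JJN3; levels of the 2 lines come from tables normalised separately. MYC is lower and MNT and MIR17HG are higher in the knockdown libraries of both lines, while MXD4 is lower in INA6 and higher in JJN3.

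Of the antagonists that pair with MAX, MNT and MXD1 were higher in both lines. MNT, the widely expressed antagonist, had 10.26, 10.26 and 10.29 in INA6 knockdown libraries, against 9.77, 9.78 and 9.73 in non-targeting libraries. In JJN3 it had 9.69, 9.88 and 9.85 in knockdown libraries, against 9.38, 9.45 and 9.48 in non-targeting libraries. That is 1.42-fold higher in INA6 (0.51, SE 0.0450) and 1.29-fold higher in JJN3 (0.37, SE 0.0488), with no overlap in either line. MXD1, which rises as many cells stop dividing and mature, had 8.70, 8.48 and 8.67 in INA6 knockdown libraries, against 8.20, 8.13 and 8.13 in non-targeting libraries. In JJN3 its knockdown libraries had 8.28, 8.38 and 8.23, against 8.08, 8.10 and 7.84 in non-targeting libraries. The differences were 0.47 (SE 0.0612) in INA6 and 0.29 (SE 0.0605) in JJN3, and JJN3 non-targeting replicate 3 lay lowest. MXD1 shares 10229 bases with ASPRV1, so with strand unknown the same uncertainty holds as for MAX; ASPRV1 was at 0.03 in INA6 (limma adjusted p = 0.746) and under the minimum mean in JJN3.

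MXI1, an MXD family member known as an antagonist of MYC, was lower in both lines. Its values were 8.71, 8.61 and 8.66 in INA6 knockdown libraries, against 8.84, 8.77 and 8.77 in non-targeting libraries. The groups stood close together there, with a difference of −0.13 (SE 0.0533). In JJN3 the knockdown libraries had 9.58, 9.28 and 9.40, against 9.84, 9.90 and 9.84 in the non-targeting libraries, a difference of −0.44 (SE 0.0532) or 73.7% of the non-targeting level.

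MXD4, known from resting and differentiating cells, was lower in INA6 knockdown cells and higher in JJN3 knockdown cells. In INA6 it had 9.37, 9.37 and 9.45 in knockdown libraries, against 9.94, 10.04 and 9.79 in non-targeting libraries. In JJN3 it had 9.73, 9.81 and 9.93 in knockdown libraries, against 9.61, 9.53 and 9.56 in non-targeting libraries. The difference was −0.53 in INA6 (SE 0.0571) and 0.26 in JJN3 (SE 0.0481), and in neither line did the groups overlap. MXD4 was the only member whose groups separated in opposite directions, and the gap between its 2 changes was −0.79 (SE 0.0746). MXD3, which unlike its relatives is known from cycling cells, overlapped between groups in both lines. Its values were 8.13, 8.04 and 8.36 in INA6 knockdown libraries, against 8.36, 8.45 and 8.27 in non-targeting libraries. In JJN3 they were 7.17, 7.37 and 7.34 in knockdown libraries, against 7.37, 7.44 and 7.31 in non-targeting libraries. The differences of −0.18 (SE 0.0717) and −0.08 (SE 0.0602) were of the size of the spread, and single libraries moved them. MXD3 in INA6 was at −0.11 without knockdown replicate 2 and at −0.28 without knockdown replicate 3, and in JJN3 it was at −0.02 without knockdown replicate 1, at −0.05 without non-targeting replicate 2 and at −0.04 with quantile normalisation. MXD3 shares 1451 of its 7254 bases with PRELID1, which was higher in both lines (0.48 and 0.24). With strand unknown, reads in the shared bases cannot be told apart.

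MLX was slightly higher and MGA did not separate. MLX had 9.77, 9.80 and 9.69 in INA6 knockdown libraries, against 9.56, 9.56 and 9.62 in non-targeting libraries. In JJN3 it had 9.63, 9.59 and 9.53 in knockdown libraries, against 9.42, 9.41 and 9.49 in non-targeting libraries. The differences were 0.17 (SE 0.0490) and 0.14 (SE 0.0456), small but without overlap. MLX shares 894 bases with PSMC3IP, which was higher too (0.29 in INA6, 0.24 in JJN3), so the same limit on strand applies. MGA, the scaffold of PRC1.6, had 9.92, 9.86 and 9.67 in INA6 knockdown libraries, against 9.70, 9.79 and 9.83 in non-targeting libraries. In JJN3 it had 9.91, 9.82 and 9.78 in knockdown libraries, against 9.76, 9.80 and 9.85 in non-targeting libraries. Its differences, 0.04 (SE 0.0585) and 0.03 (SE 0.0452), changed sign under some alternatives (−0.01 to 0.12 in INA6, −0.03 to 0.06 in JJN3).

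MIR17HG had the largest difference of the 10 members in either line. Its values were 8.11, 8.14 and 8.10 in INA6 knockdown libraries, against 7.36, 7.31 and 7.45 in non-targeting libraries. In JJN3 they were 8.47, 8.35 and 8.17 in knockdown libraries, against 7.81, 7.78 and 7.67 in non-targeting libraries. It was 1.68-fold higher in INA6 knockdown cells (0.75, SE 0.0600) and 1.49-fold higher in JJN3 knockdown cells (0.58, SE 0.0617). The rows of the 6 microRNA genes themselves were at 0 in every library, so the host transcript was measured and the mature microRNAs were not.

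**Figure D3:**
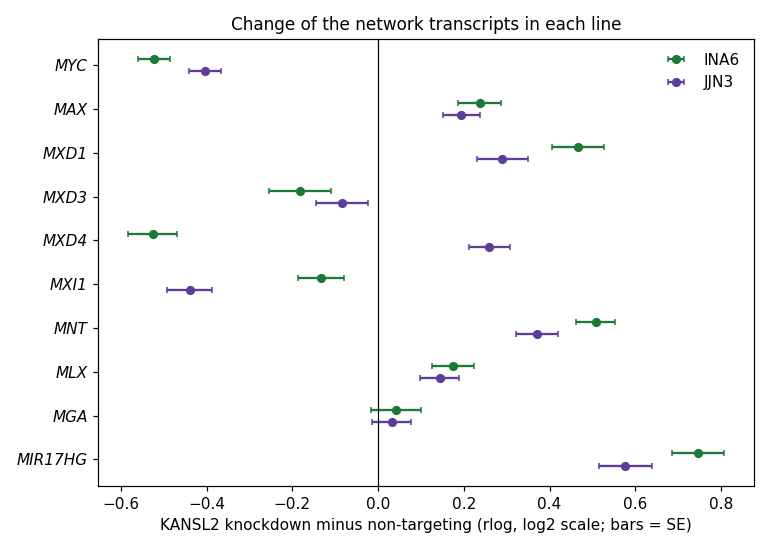
Points give the knockdown minus non-targeting difference of each network transcript on the rlog (log2) scale, with bars for the SE, in INA6 (green) and JJN3 (purple). MYC and MXI1 lie left of 0 in both lines, MAX, MXD1, MNT, MLX and MIR17HG right of 0 in both, and MXD4 on opposite sides.

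In INA6, 5 members were above and 3 below the non-targeting libraries without overlap, where 55.2% of all tested genes did not overlap (27.7% above, 27.4% below). In JJN3, 6 were above and 2 below, where 56.1% of all tested genes did not overlap (28.4% above, 27.7% below). By the limma threshold 9 members were called in INA6 and 8 in JJN3, beside the 48.6% and 51.0% over all genes. The INA6 count included MXD3, whose groups overlapped. As the network was picked from this contrast, these counts describe the choice and carry no further reading. The members' median difference was 0.11 in INA6 and 0.17 in JJN3, with an all-gene median of 0.00 in each.

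Set against the partners and antagonists in the same library, MYC was lower relative to MAX, MXD1, MXD3 and MNT in both lines. The SEs of these gaps use only the spread of the 3 libraries in each group, whereas the members' SEs above come from limma. The log2 gap of MYC over MNT differed by −1.03 (SE 0.0138) in INA6 and by −0.78 (SE 0.0664) in JJN3. Against MXD1 the gap differed by −0.99 (SE 0.0570) in INA6 and by −0.70 (SE 0.0944) in JJN3. Against MAX it differed by −0.76 (SE 0.0337) and −0.60 (SE 0.0483). The gap to MXD3 differed by −0.34 (SE 0.0926) in INA6 and by −0.32 (SE 0.0752) in JJN3. The gap to MXD4 differed by 0.00 (SE 0.0688) in INA6 and by −0.66 (SE 0.0788) in JJN3. The gap to MXI1 differed by −0.39 (SE 0.0327) in INA6 and by 0.04 (SE 0.0833) in JJN3. The difference in gap was thus within its error for MXD4 in INA6 and for MXI1 in JJN3. These are gaps between transcripts and say nothing of protein amounts.

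**Figure D4:**
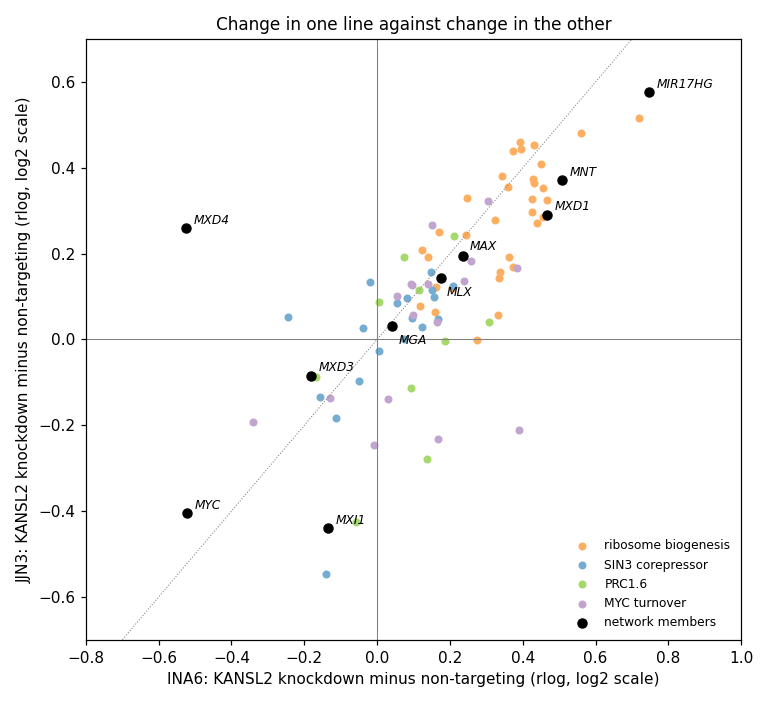
Each point is a gene, with its knockdown minus non-targeting difference in INA6 on the x axis and in JJN3 on the y axis (rlog, log2 scale); network members are black and labelled, and the dotted line marks equal change. MXD4 sits in the upper left at −0.53 and 0.26, while MYC sits in the lower left at −0.52 and −0.40.

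Of 11 other E-box binding factors listed, MYC relatives MYCN and MYCL among them, 8 were tested in INA6, where 3 rose and 2 fell, and 9 in JJN3, where 0 rose and 2 fell. The list's median was 0.04 in INA6 and 0.01 in JJN3. Over all genes tested, 24.7% rose and 24.0% fell in INA6, and 25.5% and 25.5% in JJN3. Those shares are the background for the counts of this and the later lists. MYCL fell by 0.45 on the log2 scale in INA6 (limma adjusted p = 2.73e-05) and was at 0.10 in JJN3 (limma adjusted p = 0.129), and its changes differed between lines (adjusted p = 3.83e-06). USF1, an E-box factor that does not need MAX, rose by 0.22 in INA6 and fell by 0.16 in JJN3 (limma adjusted p for the difference between lines = 1.21e-05). Of the 11137 genes tested in both lines, 30.0% differed in their change, and 3.91% were called in opposite directions. MLXIP, the partner through which MLX senses sugar phosphates, was at 0.00 in INA6 (limma adjusted p = 0.989) and at 0.05 in JJN3 (limma adjusted p = 0.386). MYCN was under the minimum mean in INA6 and MLXIPL in both lines.

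Of MYC's chromatin cofactors, 16 were tested in each line, of which 8 rose and 0 fell in INA6 (median 0.13) and 7 rose and 2 fell in JJN3 (median 0.06). The INA6 rises numbered 4 without non-targeting replicate 2 or without replicate 3, and 5 without knockdown replicate 2 or without replicate 3, the last of which also gave 1 fall. The acetyltransferase genes EP300 (0.31 in INA6, 0.27 in JJN3) and CREBBP (0.21 and 0.25) rose in both lines, as did the elongation factor gene SUPT5H (0.29 and 0.39). HCFC1, which binds MYC and is also an NSL subunit, rose by 0.41 in INA6 and by 0.18 in JJN3. The JJN3 call of HCFC1 was lost with quantile normalisation (0.08, limma adjusted p = 0.0553).

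Of 18 subunits of the SIN3 corepressor and linked deacetylase complexes, which MXD proteins and MNT recruit, 6 rose and 3 fell in INA6 (median 0.07) and 4 rose and 3 fell in JJN3 (median 0.05). HDAC1, a catalytic subunit, rose by 0.21 in INA6 (limma adjusted p = 0.00077). In JJN3 HDAC1 rose by 0.125 (limma adjusted p = 0.0279), a call lost with quantile normalisation (limma adjusted p = 0.302). The scaffold gene SIN3A rose by 0.15 in INA6 and by 0.12 in JJN3, and neither call held with quantile normalisation (limma adjusted p = 0.0861 and 0.324). SUDS3, another subunit, fell by 0.55 in JJN3 and by 0.14 in INA6, where the call was lost with median centring (limma adjusted p = 0.129). In INA6 the rises numbered 3 without knockdown replicate 2 or without non-targeting replicate 3, and no fall was left without knockdown replicate 2. In JJN3 the rises numbered 2 without non-targeting replicate 1 or without replicate 2. Over all genes tested 48.6% were called in INA6 and 51.0% in JJN3, so nothing is read from the counts of this list.

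Of 10 tested partners of MGA in PRC1.6, 4 rose and 1 fell in INA6 (median 0.10). In JJN3 3 rose and 2 fell (median 0.02). These counts are near the shares called over all genes, 48.6% in INA6 and 51.0% in JJN3. The INA6 fall, of YAF2 (−0.17), was not called without knockdown replicate 3, without non-targeting replicate 1 or without non-targeting replicate 3 (limma adjusted p = 0.101, 0.0661 and 0.0822), nor with median centring (limma adjusted p = 0.0686). E2F6, its sequence-specific repressor, rose in both lines (0.21 and 0.24). TFDP1, a dimer partner of E2F proteins, rose by 0.31 in INA6, and its relative TFDP2 fell by 0.43 in JJN3.

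Of 17 enzymes of MYC phosphorylation and ubiquitination, 9 rose and 2 fell in INA6 (median 0.14), and 8 rose and 6 fell in JJN3 (median 0.10). The JJN3 rises numbered 3 without knockdown replicate 2 and 5 without non-targeting replicate 1. The INA6 falls numbered 1 without knockdown replicate 2, without non-targeting replicate 2 or without non-targeting replicate 3. Of all genes tested, 48.6% were called in INA6 and 51.0% in JJN3. USP36, a nucleolar deubiquitinase that stabilises MYC, rose by 0.30 in INA6 and 0.32 in JJN3, and the ubiquitin ligase gene SKP2 by 0.39 and 0.17. USP28, which counters the ligase FBXW7, fell by 0.34 in INA6 and by 0.19 in JJN3, where the call was lost without JJN3 knockdown replicate 2 (−0.15, limma adjusted p = 0.0679) or non-targeting replicate 3 (−0.16, limma adjusted p = 0.056). The mitotic kinase genes PLK1 (0.39 in INA6, −0.21 in JJN3) and AURKA (0.17 and −0.23) rose in INA6 and fell in JJN3, with limma adjusted p for the difference between lines of 1.07e-10 and 2.69e-06.

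Of 18 factors listed as controlling the MYC gene, 11 rose and 2 fell among 18 tested in INA6 (median 0.15), and 10 rose and 0 fell among 17 tested in JJN3 (median 0.13). IRF4, the myeloma transcription factor that activates MYC, rose by 0.29 in INA6 and by 0.45 in JJN3. PRDM1, which represses MYC in plasma cells, fell by 0.72 in INA6 and rose by 0.28 in JJN3 (limma adjusted p for the difference between lines = 6.08e-18). FUBP1, which binds an element upstream of MYC, rose by 0.48 in INA6 and 0.19 in JJN3. The repressor BCL6 rose by 0.92 in JJN3 and was at 0.00 in INA6. All genes tested gave 24.7% rises and 24.0% falls in INA6, and 25.5% and 25.5% in JJN3. MYC answers growth signals much as immediate early genes do, and of 17 of these tested, 13 fell and 1 rose in INA6 (median −0.81) while 8 rose and 5 fell in JJN3 (median 0.08). The JJN3 falls numbered 2 without non-targeting replicate 1 and 3 without knockdown replicate 2. The part of this list in the MYC values was not tested.

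**Figure D5:**
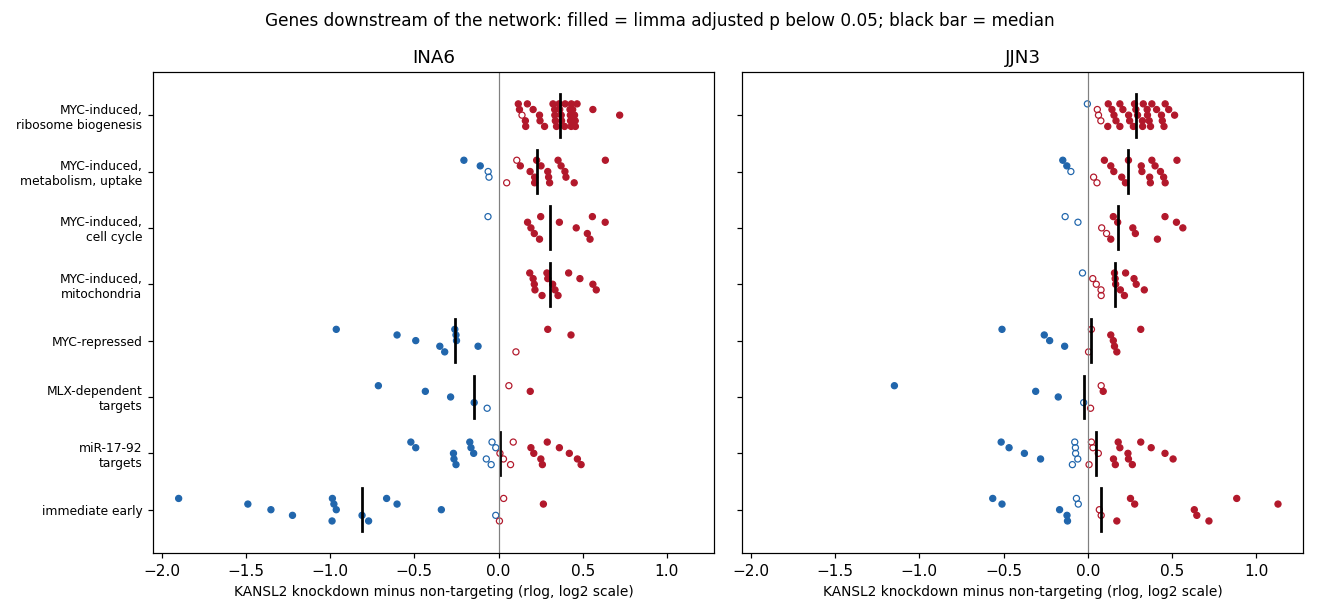
Each dot is a gene, placed by its knockdown minus non-targeting difference (rlog, log2 scale) in INA6 (left) and JJN3 (right), red above 0 and blue below, filled where limma's adjusted p was below 0.05, with a black bar at the list's median. The medians of the MYC-induced lists lie right of 0 in both lines (ribosome biogenesis 0.36 and 0.29), and the median of the MYC-repressed list lies left of 0 in INA6 (−0.26).

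Most genes that MYC is known to induce were higher in the knockdown cells, where MYC itself was lower. Over 4 lists, 72 of 80 tested genes rose and 2 fell in INA6 (median 0.33), and 63 of 81 rose and 2 fell in JJN3 (median 0.24). In both lines 57 of 80 rose, beside 14.2% of all genes tested in both. That MYC targets rise was known from these data when the lists were made, so the counts are not independent evidence.

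Of 33 ribosome biogenesis genes, 32 rose in INA6 (median 0.36) and 29 in JJN3 (median 0.29), and 0 fell in either. PPAN, a factor of the large ribosomal subunit, rose by 0.72 in INA6 and by 0.52 in JJN3. MRTO4 rose by 0.56 and 0.48, the nucleolar proteins NCL by 0.43 and 0.37 and NOP56 by 0.40 and 0.44.

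Of 21 genes of nucleotide, polyamine and nutrient metabolism, 15 rose and 2 fell in INA6 (median 0.23), and 16 rose and 2 fell in JJN3 (median 0.24). The falls numbered 1 in INA6 without replicate 1 or replicate 2 of either group, and 1 in JJN3 without knockdown replicate 2. TFRC, which imports iron, rose by 0.63 in INA6 and 0.37 in JJN3, and the nucleotide enzyme genes CTPS1 (0.40 and 0.45) and IMPDH2 (0.29 and 0.43) rose in both. ODC1 and SRM, of polyamine synthesis, rose by 0.30 and 0.45 in INA6 and by 0.40 and 0.32 in JJN3. SLC3A2 and SLC7A5, which together form an amino acid exchanger, rose by 0.53 and 0.46 in JJN3, while in INA6 SLC3A2 was at −0.06 (limma adjusted p = 0.34) and SLC7A5 at −0.11, a call lost under several alternatives (limma adjusted p = 0.152 with median centring, 0.142 without knockdown replicate 2 and 0.226 without non-targeting replicate 2). HK2, a hexokinase, rose by 0.30 in INA6 and fell by 0.15 in JJN3 (limma adjusted p for the difference between lines = 2.06e-08).

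Of the cell cycle genes 11 of 12 rose in INA6 (median 0.31) and 9 of 13 in JJN3 (median 0.18), and 0 fell. Without JJN3 non-targeting replicate 3, 1 fell in JJN3. MCM5 and MCM4, subunits of the replicative helicase, rose by 0.63 and 0.56 in INA6 and by 0.53 and 0.56 in JJN3. The phosphatase gene CDC25A rose by 0.53 and 0.41. CCND2 was listed at 0 in every INA6 library and rose by 0.15 in JJN3. Of 14 mitochondrial and chaperone genes, 14 rose in INA6 (median 0.31) and 9 in JJN3 (median 0.17), among them HSPD1 (0.56 and 0.28) and PPRC1, a coactivator of mitochondrial biogenesis (0.58 and 0.22).

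Of 12 genes known to be repressed by MYC that were tested in INA6, 9 fell and 2 rose (median −0.26), and of 11 tested in JJN3, 4 fell and 5 rose (median 0.02). The cell cycle inhibitor gene CDKN1B fell in both lines (−0.35 and −0.14), and ZFP36, a message decay factor that is also on the immediate early list, by 0.96 and 0.51. CDKN1A, another inhibitor, fell by 0.25 in INA6 and rose by 0.31 in JJN3 (limma adjusted p for the difference between lines = 2e-08). The JJN3 rises numbered 2 without non-targeting replicate 3, and 3 without knockdown replicate 2, without non-targeting replicate 1 or without non-targeting replicate 2. Called over all genes were 48.6% in INA6 and 51.0% in JJN3.

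Of 7 tested targets that MLX drives with MLXIP or MLXIPL, 4 fell and 1 rose in INA6 (median −0.15), and 3 fell and 1 rose in JJN3 (median −0.02). The INA6 rise was not called without replicate 1 of either group. The JJN3 rise, of the lipid synthesis gene FASN (0.09, limma adjusted p = 0.0476), had a limma adjusted p of 0.0534 to 0.149 when knockdown replicate 2 or 3 or any non-targeting replicate was left out, and of 0.537 with quantile normalisation. TXNIP, which curbs glucose uptake, fell by 0.71 in INA6 and by 1.15 in JJN3. Its values were 10.56, 10.35 and 10.41 in INA6 knockdown libraries, against 10.99, 11.35 and 11.13 in INA6 non-targeting libraries. In JJN3 they were 10.81, 10.72 and 10.61 in knockdown libraries, against 11.87, 11.81 and 11.91 in non-targeting libraries, so the groups stood apart in both lines. KLF10 fell by 0.29 and 0.31. ARRDC3, a relative of TXNIP, fell by 0.44 in INA6 and was at 0.08 in JJN3. ARRDC4 was under the minimum in both lines. The all-gene shares called were 48.6% in INA6 and 51.0% in JJN3.

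Of 25 described targets of the miR-17-92 microRNAs tested in INA6, 9 rose and 8 fell (median 0.01), and of 24 in JJN3, 11 rose and 4 fell (median 0.05). RBL2, a retinoblastoma relative, fell by 0.52 in INA6 and by 0.47 in JJN3, while RBL1, another relative, rose by 0.25 and 0.38. RB1 itself fell by 0.38 in JJN3 and was at 0.09 in INA6 (limma adjusted p = 0.269). The death inducer gene BCL2L11 rose by 0.47 in INA6 and 0.24 in JJN3. The E2F genes, which are also activated in the cycle, rose in both lines, E2F1 by 0.29 and 0.51, E2F2 by 0.36 and 0.46, and E2F3 by 0.49 and 0.24. With quantile normalisation 8 targets fell in JJN3. Rises and falls over all genes were 24.7% and 24.0% in INA6, and 25.5% and 25.5% in JJN3. TNFAIP3 rose by 0.42 in INA6 and fell by 0.51 in JJN3 (limma adjusted p for the difference between lines = 2.09e-13).

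Among other microRNA hosts, MCM7, whose cluster shares the miR-17 seed shown above, rose by 0.36 in INA6 and by 0.30 in JJN3. DLEU2, the host of a cluster that restrains the cell cycle, rose by 0.27 in each line. MIR155HG rose by 0.51 in JJN3 and was under the minimum in INA6, and MIR210HG, a hypoxia-linked host, fell by 0.29 and 0.22. In INA6 MIR210HG lay near the minimum mean of 3, at 3.43 to 3.83. Of 7 hosts tested in each line, 2 rose and 2 fell in INA6 and 3 rose and 1 fell in JJN3. Nothing is read from these counts, with 48.6% of all genes called in INA6 and 51.0% in JJN3. Of the INA6 falls, that of MIR99AHG (−0.12, limma adjusted p = 0.0346) was not called without knockdown replicate 1 or 3 or without non-targeting replicate 1 or 2, where its limma adjusted p was 0.069 to 0.104.

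The genes closest to the MYC pattern, by Euclidean distance over the 12 libraries after each line's mean was removed, were NUP210 (distance 0.127), RINL (0.130), PNRC1 (0.143), MARCHF9 (0.156) and SLC13A3 (0.159), out of 11127 compared. MYC's own distance from a flat pattern was 0.813. NUP210, a nuclear pore protein, was at −0.51 in INA6 and −0.46 in JJN3. Closest to MXD4 were C16orf74 (0.242), SREBF1 (0.247) and CHST12 (0.262), against a flat-pattern distance of 0.759 for MXD4. SREBF1, a regulator of lipid synthesis, was at −0.42 in INA6 and 0.15 in JJN3, where its call was lost with quantile normalisation (limma adjusted p = 0.312) and without non-targeting replicate 3 (limma adjusted p = 0.0579). Closest to MIR17HG were PPAN (0.292), ZNF587B (0.328) and SNORA73B (0.334), against 1.18 for MIR17HG, and closest to MXI1 were DCTN3 (0.183), GGPS1 (0.185) and INTS14 (0.197), against 0.609 for MXI1. Among the closest to MXD3, whose own distance from a flat pattern was 0.406, were OTUD5 (0.167) and FLYWCH2 (0.167).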

How the data were processed

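Polyadenylated RNA was sequenced in 12 libraries, 3 in each of 4 groups, which were assigned by sample title. The submitters' processing notes name hg38 and the tools Bowtie2, DESeq2, HTSeq and Trim Galore, without versions; settings, annotation and strand were not given. The authors deposited 1 table per line of rlog values on the log2 scale. Rlog shrinks genes with few reads, so their changes are understated, and depth is unknown.

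Each line was fitted alone with limma 3.58.1 (R 4.3.3; trend on, no block), using genes with a mean of at least 3, tested on simulated data, and all p-values are two-sided with Benjamini-Hochberg adjustment over all genes tested (threshold 0.05). Differences are knockdown minus non-targeting with n = 3 per arm. The change between lines was tested by dividing the gap between both limma differences by its combined standard error, over 11137 genes; a limma adjusted p for the difference between lines means this test. An exact permutation test of 3 against 3 cannot go below 0.1 and was not used. Members and lists were chosen with earlier results of these data known. Named were the members, up to 4 called genes per list and line with the smallest p, genes nearest in pattern, and the 3 list genes per direction that differed most between lines; not all are reported here, and others were named after their values were seen (MLXIP, CCND2, HK2 and the rows overlapping members, among others). Sequences and coordinates come from the RefSeq tables of GRCh38.p14. Alternatives were a replicate block, median centring, quantile normalisation, no filter, a mean of at least 5, no variance trend and each library left out. PHB1 was matched by its older symbol, and 3 listed symbols had no row.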

Additional observations from a re-analysis of the deposited data

Results flagged for a closer look

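MXD4 moved by −0.53 in INA6 and by 0.26 in JJN3, a difference between the lines of −0.79 (−0.785 before rounding). It is listed because all knockdown libraries lay below the non-targeting ones in INA6 and above them in JJN3; since MXD4 was picked from this contrast, the difference was not tested.

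The other genes listed here are the 3 in each direction, among all genes of the lists, ranked by the p of the INA6 against JJN3 test (adjusted by Benjamini-Hochberg over 11137 genes, of which 30.0% passed). The INA6 change minus the JJN3 change was 0.93 for TNFAIP3, an inhibitor of NF-kappaB signalling. It was 0.66 for the B cell receptor subunit gene CD79B and 0.60 for PLK1. It was −2.12 for FOS, −2.00 for KLF2 and −1.14 for TNFRSF17, the gene of the myeloma surface target BCMA. TNFRSF17 fell by 0.56 in INA6 and rose by 0.58 in JJN3.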

How the results depend on the processing

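The counts of called genes, of rises in each of the 4 MYC-induced lists and of the difference between lines stayed within 1.5 times of the reported counts under all 12 alternatives per line. Falls in those lists did not: metabolic genes had 1 to 3 falls in each line, against 2, and JJN3 cell cycle and mitochondrial genes had up to 1, against 0. Called genes ranged from 5034 to 6304 in INA6 and from 5332 to 6339 in JJN3. The split of higher and lower calls moved most with median centring, to 3904 and 2400 in INA6 and to 3768 and 2571 in JJN3. Yet the library medians, averaged per group, differed by only −0.04 in INA6 and −0.03 in JJN3 (knockdown minus non-targeting). Replicate numbers are shared between groups, but same-numbered libraries did not deviate together (correlations of −0.296 to −0.068 in INA6 and −0.014 to 0.005 in JJN3). With 3 libraries per group this check cannot exclude pairing. The replicate block called 5626 genes in INA6, 6205 in JJN3 and 2976 for the difference between lines. With it, falls in INA6 went to 1, against 2, for metabolic, turnover and microRNA host genes. MYC ranged from −0.54 to −0.49 in INA6 and from −0.43 to −0.38 in JJN3, MIR17HG from 0.71 to 0.79 and from 0.51 to 0.66, and only MGA changed sign among the members under these alternatives. Leaving out single libraries gave 2723 to 3434 genes for the difference between lines. Quantile normalisation left 1 rise among the SIN3 subunits of JJN3, against 4. No microRNA host fell in INA6 with a minimum mean of 5, as MIR210HG and MIR99AHG lay under it and were not tested. With median centring 4 rose in INA6, against 2. Of the lists with 0 calls in a direction by limma, an unadjusted p under 0.05 added 1 fall among JJN3 cell cycle genes and 0 among the other E-box factor, cofactor, MYC-controlling and MYC-induced counts of 0. Depth cannot be judged from rlog values, so the limit for scarce transcripts is unknown.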

Other observations

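The E-box was in 29 of 68 MYC-induced genes with a promoter window (42.6%), beside 13.1% of genes tested in both lines, and in 13 of 27 ribosome biogenesis genes and 10 of 17 metabolic genes, but in 2 of 10 cell cycle genes. In INA6 29.7% of 1231 genes with CACGTG in the window rose and 21.3% fell, against 24.8% and 24.3% of 8433 genes without it. In JJN3 30.9% of 1212 genes with it rose and 21.6% fell, against 25.1% and 26.3% of 8318 genes without it. The medians were 0.03 with and 0.00 without it in each line. These are descriptions with no test, and the base composition of the windows was not examined.

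Of 6 B cell markers tested in JJN3, 5 rose and 1 fell (MS4A1 by 0.64, CIITA by 0.61, CD79B at −0.60), while the 6 tested in INA6 lay between −0.06 and 0.10, with 0 called by limma and 0 at an unadjusted p under 0.05, and MS4A1 was listed at 0. Plasma cell markers had 2 rises and 7 falls of 10 in INA6, and 5 rises and 2 falls of 10 in JJN3. In JJN3 TNFRSF17 rose by 0.58 and IRF4 by 0.45, while SDC1 fell by 0.50.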
